A study of Mus musculus with 2 samples.

Results

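CTCF binding sites in intergenic DNA just upstream of genes were examined in mouse embryonic stem cells. A site was an autosomal peak, on the mm9 build, of the list deposited for the series as a whole (the pooled list). Its midpoint lay outside every protein-coding gene of GENCODE vM1 and over 1000 and up to 10000 bp upstream, by strand, of the nearest protein-coding transcription start. The rule took 3745 of 38519 autosomal peaks and used position alone. The cells were E14TG2a.4, a male embryonic stem cell line of strain 129/Ola whose stage is given as embryonic, 3.5 day, and chromatin was immunoprecipitated with an antibody to CTCF. The 2 libraries were biological replicates 1 and 2 of 1 group, untreated as far as the labels say, so there was no second condition and no test between groups. The line comes from 1 donor, and peaks are not replicates, so values are given as descriptions with the spread between the 2 libraries. Depth was unknown because the lists hold no read counts, and intervals are exact Clopper-Pearson 95% intervals that cover counting error only. In such bulk chromatin, fewer bound cells and weaker binding in each cell cannot be told apart.

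CTCF is a zinc-finger protein that binds a long, directional DNA motif and stops the loop-extruding cohesin complex. A pair of sites whose motifs point toward each other tends to anchor a chromatin loop, and sites near promoters can bring a distal enhancer to a gene or shield the gene from one. In rodents many CTCF motifs lie in copies of B2 short interspersed elements, mobile sequences that spread the motif through the genome.

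The motif learnt from the strongest peaks outside the upstream set was 19 bp long. Its consensus was CCACCAGGGGGCGCTAGAG, and both strands were scored within 150 bp of each midpoint. The scores found in 5% and in 1% of windows outside the peaks, called the 5% score and the 1% score, served as thresholds. The sequences below are the best matches of peaks that the results turn on, read 5′ to 3′ along the motif with 12 bases before and 30 after it, with the motif in capitals. Gprc5b, Gbx1 and Map3k9 stand for the strongest upstream peaks, Psmd1, Col13a1 and Cxcl12 for peaks with close matches to the consensus, and Hoxd8 and Epha4 for developmental genes. Rps16, Wnt1, Nanog, Pou5f1 and Uhrf1 show motifs that open with the same letters.
Gprc5b: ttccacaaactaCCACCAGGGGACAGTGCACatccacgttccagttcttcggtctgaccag
Gbx1: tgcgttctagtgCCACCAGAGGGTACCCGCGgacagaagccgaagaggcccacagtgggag
Map3k9: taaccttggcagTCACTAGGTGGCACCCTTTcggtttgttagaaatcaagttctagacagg
Psmd1: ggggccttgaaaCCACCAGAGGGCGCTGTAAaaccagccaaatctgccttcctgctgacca
Col13a1: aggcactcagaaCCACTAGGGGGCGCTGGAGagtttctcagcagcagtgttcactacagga
Cxcl12: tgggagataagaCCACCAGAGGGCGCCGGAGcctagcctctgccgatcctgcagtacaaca
Hoxd8: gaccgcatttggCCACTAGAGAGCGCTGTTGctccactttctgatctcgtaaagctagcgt
Epha4: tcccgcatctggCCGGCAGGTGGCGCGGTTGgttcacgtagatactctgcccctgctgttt
Rps16: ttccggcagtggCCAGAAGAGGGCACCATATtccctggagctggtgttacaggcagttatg
Wnt1: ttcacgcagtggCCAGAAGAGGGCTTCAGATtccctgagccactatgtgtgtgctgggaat
Nanog: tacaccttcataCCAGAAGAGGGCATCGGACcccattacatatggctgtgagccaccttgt
Pou5f1: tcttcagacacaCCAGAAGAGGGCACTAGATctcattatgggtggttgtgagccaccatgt
Uhrf1: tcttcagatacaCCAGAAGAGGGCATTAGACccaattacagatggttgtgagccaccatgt

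On mm9 these stretches lie at chr7:126139840-126139900 (Gprc5b, minus strand), chr5:24035983-24036043 (Gbx1, minus), chr12:82889901-82889961 (Map3k9, plus), chr1:87956192-87956252 (Psmd1, plus), chr10:61443351-61443411 (Col13a1, plus), chr6:117116999-117117059 (Cxcl12, plus), chr2:74540440-74540500 (Hoxd8, plus) and chr1:77512984-77513044 (Epha4, minus). The motifs with the same opening letters lie at chr7:29129849-29129909 (Rps16, minus), chr15:98616348-98616408 (Wnt1, minus), chr6:122649843-122649903 (Nanog, plus), chr17:35633642-35633702 (Pou5f1, plus) and chr17:56441230-56441290 (Uhrf1, plus). All are intergenic. The stretches upstream of Pou5f1 and Uhrf1 were identical at 53 of 61 bases, those upstream of Nanog and Uhrf1 at 47, and those upstream of Nanog and Pou5f1 at 43. Among the 10 pairs of these 5 stretches these were the 3 highest values, followed by 38 for Wnt1 and Rps16. The other 6 pairs, each of Wnt1 or Rps16 with one of the rest, were identical at 25 to 28 bases. All 5 stretches were picked for the same first 11 motif letters, so those bases are identical in every pair.

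Upstream DNA held more CTCF peaks per length than most other intergenic DNA. The 122.4 Mb of autosomal sequence that met the same rule for position (eligible sequence, read at every 10th base) held 30.6 peaks per Mb in the pooled list, and 28.7 and 28.8 per Mb in replicates 1 and 2. All other autosomal sequence together held 15.3 per Mb in the pooled list, with 14.1 and 14.3 in the replicates. Intergenic DNA over 10000 bp upstream of its nearest start held 11.5 per Mb, intergenic DNA downstream of its nearest start 12.1 and gene interiors 1 to 10 kb past a start 25.4. The 1000 bp either side of a start held 40.3 per Mb, with 56.4 in the 1000 bp before the start and 24.99 in the 1000 bp past it. Across the replicates the upstream density was 28.7 ± 0.0867 per Mb (SD, n = 2), and the density of all other sequence was 14.2 ± 0.121.

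Within the window the density was higher toward the start. It was 35.6 peaks per Mb at 1 to 2 kb, 31.1 at 4 to 5 kb and 24.3 at 9 to 10 kb upstream in the pooled list. Replicate 1 gave 33.7, 29.7 and 21.9 per Mb over the same bins and replicate 2 gave 32.5, 29.4 and 22.01, so both libraries had the same order of these 3 bins. At 2 to 3 kb the density was 34.3 per Mb in the pooled list, 33.4 in replicate 1 and 32.7 in replicate 2, where it was above that of the bin nearest the start. The outermost bin was close to the 24.98 per Mb found 10 to 20 kb upstream, and density was lower still farther out, at 12.5 per Mb 50 to 100 kb upstream. Inside genes the mirror-image bins ran between 23.0 per Mb at 9 to 10 kb and 28.8 per Mb at 2 to 3 kb past the start. The upstream class made up 9.72% of autosomal peaks in the pooled list (interval 9.43 to 10.02%) and 9.85% and 9.79% in replicates 1 and 2. By chromosome this share ran between 7.17% and 12.9%, and chromosomes 11 (12.9%) and 7 (12.6%) had the highest shares.

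**Figure D1:**
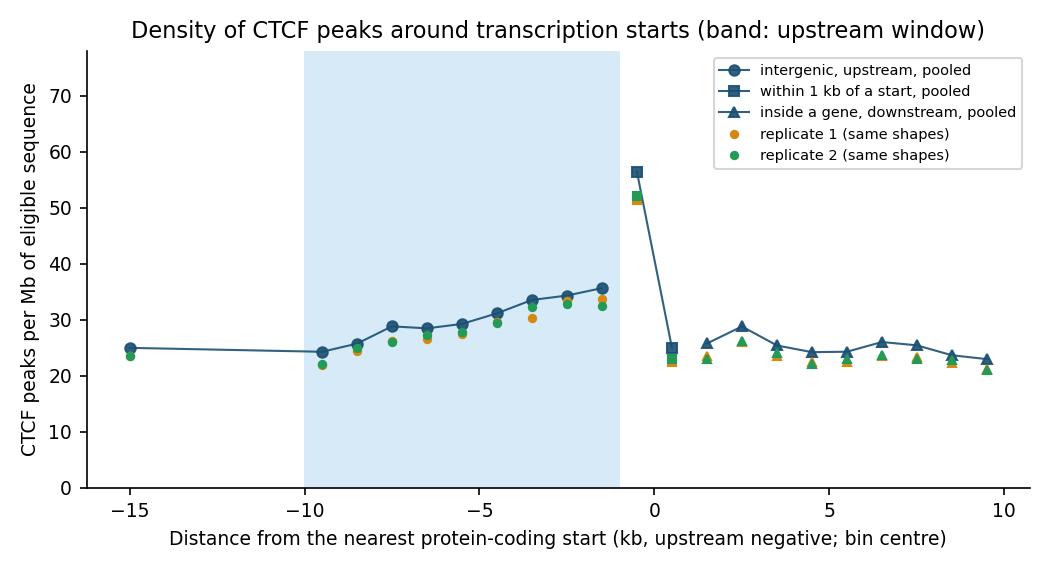
CTCF peaks per Mb of eligible sequence (y axis) by signed distance from the nearest protein-coding start in kb (x axis, upstream negative), for the pooled list (dark points and lines) and replicates 1 (orange) and 2 (green), with the upstream window shaded. In the window the pooled density is 35.6 per Mb in the bin nearest the start and 24.3 in the farthest, and each replicate has the same order of these bins.

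The strength of upstream peaks was slightly above that of the other classes. Strength is the deposited fold enrichment, a ratio on the authors' scale. Its median was 12.9 in upstream peaks (quartiles 8.16 and 17.7, range 3.38 to 41.9) and 12.1 in all other autosomal peaks (quartiles 7.88 and 16.9). Peaks within 1000 bp of a start had a median of 11.2 and those over 10000 bp upstream one of 11.96. For the mirror-image class inside genes, 1 to 10 kb past a start, it was 12.2. The upstream median was 1.06 times that value in the pooled list and 1.02 times the matching value in each replicate. The ratio of the upstream median to that of all other peaks was 1.07 in the pooled list, and 1.06 in both replicates (mean 1.06 ± 0.00225, SD, n = 2). This shift was small beside the spread between peaks, since the quartile ranges overlapped over most of their length. Among the 1015 strongest autosomal peaks (the first 1000 with ties) were 116 upstream peaks, which is 3.10% of upstream peaks, while 2.59% of all other peaks were among them. The share was 2.99% for peaks within 1000 bp of a start and 2.88% for the mirror-image class. Distance from the start and fold enrichment were unrelated across upstream peaks (Spearman rho 0.00181, 3745 peaks that share libraries).

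**Figure D2:**
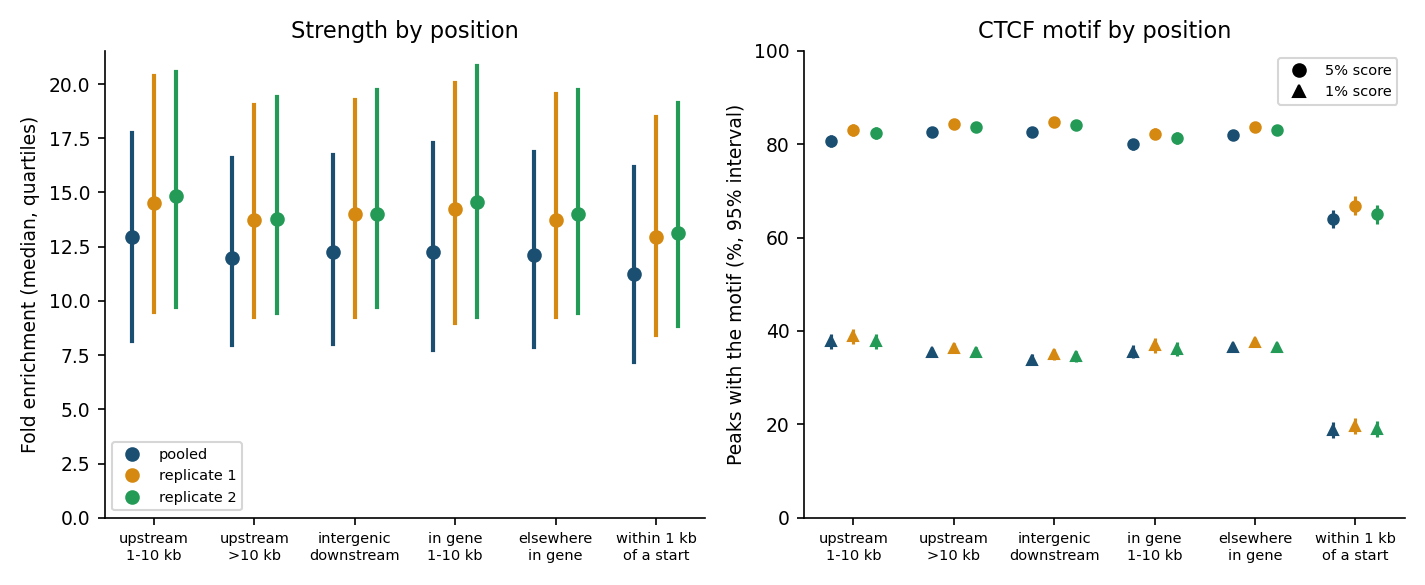
Left, fold enrichment (y axis; point, median; bar, quartiles) for upstream peaks and the 5 other position classes in the pooled list and each replicate; right, the percentage of peaks with the CTCF motif at the 5% (circles) and 1% (triangles) scores, with 95% intervals. The pooled upstream median is 12.9 and all quartile bars overlap, while the class within 1 kb of a start has the lowest motif shares, 64.0% and 18.8%.

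The strongest upstream peak was also the strongest CTCF peak on the autosomes. It lay on chromosome 17 (mm9, 56902449 to 56903495), 1202 bp upstream of Dus3l (ENSMUSG00000007603.8), which encodes a tRNA dihydrouridine synthase, and between that gene and the divergent gene Nrtn. Its fold enrichment was 68.1 in replicate 1, 70.6 in replicate 2 and 41.9 in the pooled list. Relative to each replicate's median over peaks matched in both libraries (relative fold enrichment), these were 4.69 and 4.75. The peak was about as high in one library as in the other. The best motif match within 150 bp of its midpoint scored 5.26 bits, below the 5% score of 11.7 bits. The peak was 1047 bp wide, so most of it lay outside that window.

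The next strongest upstream peak stood 1237 bp from Gprc5b, an orphan G protein-coupled receptor gene, with 49.1 and 51.4 in replicates 1 and 2. Telo2, whose product stabilises the kinases of the DNA damage response, had 43.0 and 49.7 at 1473 bp. Both peaks were slightly higher in replicate 2. Nemf, a gene of ribosome quality control, had 50.2 and 40.3 at 3693 bp and was higher in replicate 1. The homeobox genes Lbx1 and Gbx1 had 45.2 and 48.6 at 8697 bp and 43.8 and 48.3 at 2979 bp. Lbx1 directs limb muscle precursors and dorsal spinal interneurons, and Gbx1 acts in the developing nervous system.

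Srp14, a subunit of the signal recognition particle, had 45.7 in replicate 1 and 45.4 in replicate 2 in a wide peak of 1815 bp at 7835 bp. Map3k9, a mixed-lineage kinase gene, had 40.7 and 47.1 at 7694 bp. Dpys, which encodes the pyrimidine-degrading enzyme dihydropyrimidinase, had 38.8 and 44.3 at 3851 bp. These 9 were called in both libraries at 2.67 times the replicate's median or more, and they span the window from its inner edge to near its outer limit. Of these 9, 5 had a motif at the 5% score.

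The CTCF motif was about as frequent in upstream peaks as elsewhere. At the 5% score (11.7 bits), 80.75% of upstream peaks had it (3024 of 3745, interval 79.4 to 82.0%), against 80.8% of all autosomal peaks. The stricter 1% score (19.02 bits) was reached by 37.8% of upstream peaks (36.2 to 39.3%), against 34.7% of all autosomal peaks. In replicates 1 and 2 the 1% values were 38.9% and 37.8% for upstream peaks and 35.5% and 34.7% for all other peaks. The difference thus had the same direction in both libraries at the 1% score, whereas at the 5% score upstream and other peaks had 83.1% and 82.8% in replicate 1 and 82.4% and 82.0% in replicate 2. Peaks within 1000 bp of a start had the motif less often, 64.0% at the 5% score and 18.8% at the 1% score. Peaks in genes, but neither within 1000 bp of a start nor 1 to 10 kb past it, came nearest at the 1% score. They had 36.5% in the pooled list, and 37.6% and 36.7% in replicates 1 and 2. In upstream peaks with a motif its centre lay a median of 26 bp from the midpoint.

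Upstream motifs ran with and against the gene in nearly equal numbers. Of upstream motifs at the 5% score 51.9% ran in the direction of the gene (interval 50.05 to 53.65%), with 51.5% and 51.7% in replicates 1 and 2, and at the 1% score 50.6% did (48.0 to 53.3%). For motifs of the mirror-image class inside genes the value at the 5% score was 53.3%, within 1000 bp of a start it was 56.8%, and in intergenic DNA downstream of the nearest start 56.9%. By distance, the upstream value was 52.8% at 1 to 2 kb, 50.8% at 2 to 5 kb and 52.5% at 5 to 10 kb.

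Many upstream motifs opened with identical letters, and these peaks were weaker, as were peaks with these letters in the other position classes. CCAGAAGAGGG was the most frequent run of first 11 motif letters among peaks outside the upstream set. It opened 774 of the 3024 upstream motifs at the 5% score, 25.6% (interval 24.1 to 27.2%), against 22.3% over all autosomal peaks with a motif. Replicates 1 and 2 had 24.55% and 24% for upstream motifs and 20.9% and 21.0% for the motifs of all other peaks. The share was 25.9% in the mirror-image class inside genes, 22.01% over 10000 bp upstream, and 13.1% within 1000 bp of a start. It was 27.2%, 25.9% and 24.8% at 1 to 2, 2 to 5 and 5 to 10 kb.

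Upstream peaks with the shared letters had a median fold enrichment of 9.85 (quartiles 6.61 and 14.9), against 13.8 (9.71 and 18.3) for upstream peaks with another motif. The same 2 medians were 9.99 and 12.9 over all other peaks and 9.57 and 13.8 in the mirror-image class inside genes. In the replicates' own lists of upstream peaks the medians were 11.6 and 15.8 in replicate 1 and 11.7 and 16 in replicate 2, with the shared-letter peaks first in each pair. The motif scores went the other way, with a median of 21.5 bits for motifs with the shared letters and 17.4 bits for the rest. Because the shared letters fix 11 of the 19 motif bases, the scores of that group are partly set by how it was chosen. Of the shared-letter peaks 78.9% were found in both replicate lists (75.9 to 81.8%), while 91.4% of peaks with another motif were (90.2 to 92.6%). Across all upstream peaks motif score and fold enrichment were unrelated (Spearman rho -0.0249, 3745 peaks), and within the 2 kinds of motif rho was -0.16 for the shared-letter peaks and 0.125 for the rest. Bases beyond the motif were shared by fewer peaks. The most frequent 8-mer after the motif, TGAGCCAC at 17 bases from its end (allowing 1 mismatch and a slip of 2 bases), followed 11.1% of upstream motifs and 6.82% of the motifs of all other peaks, and in the mirror-image class inside genes it followed 10.7% (9.67 to 11.8%). Single genes were checked among the 10 strongest members, up to 3 genes per list and the textbook genes only. Of these, 11 had a motif with the shared letters. Among the 11, 3 (Uhrf1, Nanog and Pou5f1) also had the 8-mer at that place. Myc and Uqcrfs1 had it there, with 1 mismatch, without the letters. The Wnt1 stretch holds the 8-mer nearer its motif, which was not counted. In the lists of replicates 1 and 2 the shares followed by the 8-mer were 9.33% and 9.37% for upstream peaks and 5.87% and 5.90% for all others, and 9.17% and 9.32% for the mirror-image class. Upstream peaks with this 8-mer had a median fold enrichment of 7.17, against 13.6 for upstream peaks with a motif and without it, and over all other peaks these medians were 6.89 and 12.8. No repeat annotation was used, so the shared letters were not assigned to a repeat family.

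**Figure D3:**
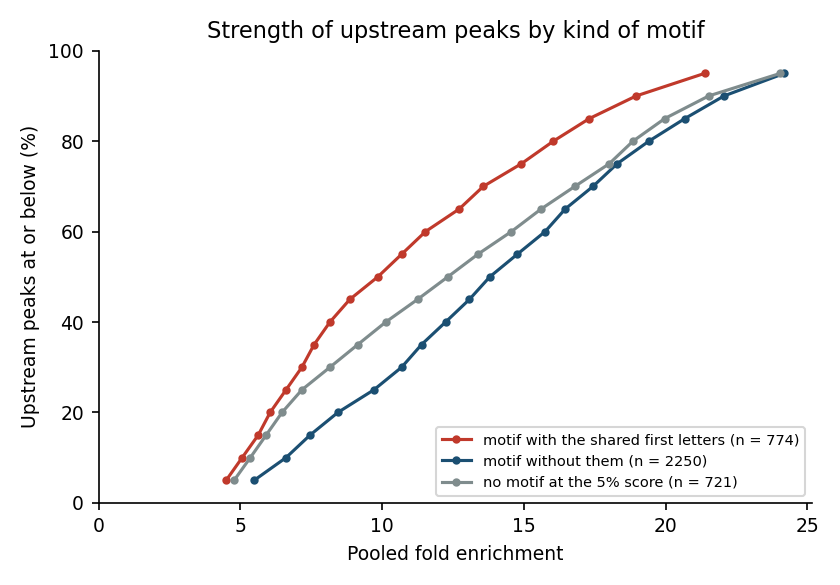
Cumulative percentage of upstream peaks (y axis) at or below a pooled fold enrichment (x axis), in steps of 5%, for peaks whose motif opens with the shared letters, peaks with another motif and peaks with no motif at the 5% score. The curve of the 774 shared-letter peaks lies left of that of the 2250 peaks with another motif over its whole length, with medians of 9.85 and 13.8.

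Upstream peaks fell into gaps between genes in 2 main arrangements. In 1714 cases (45.8%) the genes on either side of the gap were divergent, with both starts facing the peak, and in 2002 (53.5%) they were in tandem, so that the peak lay between the end of one gene and the start of the next. In another 28 the bounding genes were convergent, and 1, upstream of Hnf4g on chromosome 3, had no protein-coding gene on its far side. Median fold enrichment was 13.1 for divergent and 12.7 for tandem gaps, with 15.05 and 14.3 in replicate 1 and 15.1 and 14.85 in replicate 2. These differences were small beside the quartile range of upstream peaks. Of upstream peaks, 314 lay in a divergent gap within 10000 bp of both starts, and their share with a motif at the 1% score was 45.2% (39.6 to 50.9%), against 37.8% for all upstream peaks.

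The gap itself was up to 20 kb long for 43.7% of upstream peaks, 20 to 100 kb for 43.3% and over 100 kb for 12.9%. The motif share at the 1% score was 41.5% (39.1 to 43.9%), 35.9% (33.5 to 38.2%) and 31.5% (27.3 to 35.8%) in that order, while the median fold enrichment was 13.1, 12.7 and 12.7. A start of a noncoding gene lay within 1000 bp of 98 upstream peaks (2.62%), against 2.03% of all other peaks. Upstream peaks also stood closer to other CTCF peaks. For 36.3% of them (34.8 to 37.9%) another peak lay within 5000 bp, against 27.2% (26.7 to 27.6%) of all other peaks, and the median distance to the nearest peak was 8169 bp against 11467 bp. Peaks within 1000 bp of a start, with 32.9%, and the mirror-image class inside genes, with 31.0%, lay between these values. Base composition was near that of other peaks, with a median GC content of 46.5% in both, whereas peaks within 1000 bp of a start had 51.8%.

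Of 21281 autosomal protein-coding genes 3223 (15.1%) had at least 1 upstream peak, and replicates 1 and 2 alone gave 14.2% and 14.3%. Most of these genes, 2760, had 1 such peak, 407 had 2, 53 had 3 and 3 had 4. The genes with 4 were Cdsn, Piwil1 and Tipin. A peak within 1000 bp of a start was present for 13.3% of genes with an upstream peak (12.1 to 14.5%), against 9.70% (9.21 to 10.2%) of genes with eligible upstream sequence and no upstream peak.

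The 4 peaks upstream of Piwil1, a piRNA-binding protein gene of the male germ line, lay 2086 to 6787 bp from its start. Their fold enrichment ran from 15.6 to 23.2 in replicate 1 and from 17.4 to 24.6 in replicate 2, so all 4 were above the upstream median of both libraries. The peaks of Tipin, a replication fork protection factor gene, were less even, at 7.66 to 26.1 in replicate 1 and 10.3 to 20.0 in replicate 2. Cdsn, which encodes the skin adhesion protein corneodesmosin, had 1 strong peak at 7240 bp (27.5 and 27.7 in replicates 1 and 2), with the other 3 at 12.94 or less in both libraries. The widest upstream peaks belonged to Calm3, a calmodulin gene (3111 bp), Hsp90ab1, a chaperone gene (2689 bp), and Wisp3 (2548 bp).

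Genes of intercellular signalling in development had upstream peaks more often than the average gene. The list of Wnt, FGF, BMP, Notch and Hedgehog ligands and receptors held 75 autosomal genes, of which 29 (38.7%, interval 27.6 to 50.6%) had an upstream peak, against 15.1% of all genes. In replicates 1 and 2 alone the share was 36.0% and 32.0%. Per length of eligible sequence the list had 65.0 peaks per Mb, against 30.6 over all genes. These were 36 peaks, with a median fold enrichment of 11.4, which is below the 12.9 of all upstream peaks. Some members are neighbours, such as Wnt1 and Wnt10b, so they are not independent.

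Among the ligands, Wnt1, which patterns the midbrain, had 34.6 in replicate 1 and 32.6 in replicate 2 in a peak 3967 bp upstream. Fgf17, a ligand of the midbrain and cerebellum, had 23.2 and 26.0 at 4992 bp and a further peak of 17.2 and 19.1 at 3497 bp. Wnt9b, which acts in kidney tubule formation, had 23.2 and 20.8 at 8837 bp. All were high in both libraries. At the low end, the peaks upstream of Dhh, Bmp7 and Bmp8a, named here after their values were seen, were found in neither replicate list and had 5.63, 3.66 and 4.36 in the pooled list.

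Of 27 pluripotency genes 10 had an upstream peak (37.0%, 19.4 to 57.6%), against 15.1% of all genes. The share was 25.9% in replicate 1 and 33.3% in replicate 2 alone, and the median fold enrichment of the pooled peaks was 8.86. Gdf3, a TGF-beta family ligand of stem cells, had the strongest, 33.0 and 31.4 in replicates 1 and 2, in the divergent gap it shares with Dppa3. Sox2, a core transcription factor, had a peak of 19.3 and 20.0 at 8859 bp and another of 10.6 and 8.85 at 2191 bp. Stat3, which relays LIF signals that hold stem cells undifferentiated, had 15.6 and 15.7 at 8219 bp. Nanog had 8.71 and 8.57 at 7641 bp, Prdm14 had 8.98 and 7.71 at 7430 bp, and Myc had 13.7 and 12.9 at 2006 bp. Pou5f1, the gene of Oct4, had a pooled value of 3.94 at 9438 bp and was called in neither replicate list, although its motif, printed above, scored 23.7 bits. The Nanog motif scored 20.3 bits. Both carry the shared opening letters.

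Of 36 lineage transcription factor genes 11 (30.6%, interval 16.4 to 48.1%) had an upstream peak, against 15.1% of all genes. Tead4, needed for the trophectoderm, had 26.1 and 21.1 at 7753 bp, Tal1, a regulator of blood formation, had 18.5 and 24.3 at 8500 bp, and Olig2, of the oligodendrocyte lineage, had 20.3 and 18.3 at 7813 bp. Imprinted protein-coding genes had 9 of 35 (25.7% in the pooled list and in each replicate). Their interval, 12.5 to 43.3%, includes the share of all genes. Usp29 had 26.7 and 29.99 at 2389 bp. The divergent gap it shares with Peg3 was 230738 bp long by this annotation, and the peak lay 228349 bp from Peg3. Phlda2, which restrains placental growth, had 29.0 and 24.0, and Mkrn3 had 25.9 and 22.3. Igf2, the fetal growth factor gene, had 12.9 and 14.3 at 5513 bp. The best match near that midpoint scored 10.2 bits. Cell cycle genes had 11 of 44 (25%, 13.2 to 40.3%, which also includes the share of all genes). E2f2 was highest at 25.6 and 27.7, followed by Ccna1 with 18.2 and 18.9 and Cdkn1c with 15.8 and 18.3.

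Most housekeeping families had shares above the 15.1% of all genes, but their intervals include that value. These shares also count genes without eligible upstream sequence. Among genes with such sequence, the share was 30.65% of 62 ribosomal protein genes, 32.1% of 28 proteasome genes and 33.3% of 54 oxidative phosphorylation genes. Over all 17154 genes with such sequence it was 18.8%, and no intervals were made for these shares. Proteasome and oxidative phosphorylation genes had 62.6 and 59.8 peaks per Mb, against 30.6 over all genes. Ribosomal protein genes had 19 of 80 (23.8%, interval 14.95 to 34.6%, 72.5 peaks per Mb). Their strongest were Rps16, with 31.95 and 25.7 at 5826 bp, Rplp0, with 26.6 and 26.9, and Rpl26, with 24.8 and 24.6. All 3 motifs ran against the gene. Proteasome genes had 9 of 38 (23.7%, 11.4 to 40.2%), led by Psmd1 with 26.9 and 28.3 at 4944 bp, Psmd9 with 23.5 and 25.1 and Psma1 with 24.8 and 20.3, and their 3 motifs ran with the gene. Oxidative phosphorylation genes had 18 of 88 (20.5%, 12.6 to 30.4%), and the strongest were Ndufa4l2 (25.4 and 31.4), Cox8b (28.5 and 28.0) and Uqcrfs1 (26.4 and 26.6). Solute carriers, whose interval lies above 15.1%, had 62 of 315 (19.7%, 15.4 to 24.5%), with Slc36a1 highest at 32.7 and 37.4, and collagens and laminins 10 of 52 (19.2%, 9.63 to 32.5%), with Col13a1 at 25.4 and 28.6. Glycolysis genes had 5 of 24 (20.8%, 7.13 to 42.15%) in the pooled list, but replicate 2 alone had 12.5%. Of their peaks only that of Slc2a3, a glucose transporter gene, was high (21.4 and 29.99). Heat shock and chaperone genes had 4 of 26 (15.4%, 4.36 to 34.9%), which were Hsp90ab1, Cct2, Cct4 and Hspa2. Only 16 of the 26 had eligible upstream sequence, and of these 25% had a peak, at 45.3 peaks per Mb.

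Large receptor families had few upstream peaks. Of 1081 olfactory receptor genes 36 had one (3.33%, interval 2.34 to 4.58%), at 4.53 peaks per Mb, and of 329 vomeronasal receptor genes 9 did (2.74%, 1.26 to 5.13%), at 3.23 per Mb, against 15.1% and 30.6 per Mb over all genes. The replicates gave 3.24% and 3.33% for olfactory and 1.82% and 2.13% for vomeronasal receptors. The few peaks could still be strong. Olfr655 had 33.0 in replicate 1 and 26.6 in replicate 2, and Olfr649 had 34.1 and 25.7. For each of the next lists, up to immune signalling genes, the interval includes the 15.1% of all genes. Keratins had 9 of 92 (9.78%, 4.57 to 17.8%, 18.1 peaks per Mb), with Krt9 highest at 29.0 and 34.3. Histone genes had 6 of 67 (8.96%, 3.36 to 18.5%) but little eligible sequence (0.0779 Mb), which held 89.9 peaks per Mb. Zfp zinc finger genes had 47 of 358 (13.1%, 9.81 to 17.1%, 24.4 per Mb), and Zfp647 had 3 upstream peaks, the strongest with 36.4 and 31.7. Hox genes had 5 of 39 (12.8%, 4.30 to 27.4%, 46.5 per Mb). They were led by Hoxd8 with 25.6 and 21.1 and Hoxa13 with 18.2 and 20.3. Clustered protocadherin genes had 2 of 24 (8.33%, 1.03 to 27%, 20.2 per Mb), Pcdhgc5 and Pcdhb21. Immune signalling genes had 6 of 49 (12.2%, 4.63 to 24.8%, 18.6 per Mb). Among them Cxcl12, a chemokine gene, had the closest match to the motif of the named genes (24.6 bits) with a peak of only 10.6 and 11.4.

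Of 17 CTCF and cohesin genes 1 had an upstream peak (5.88%, interval 0.149 to 28.7%), against 15.1% of all genes, which lies inside the interval. It was Nipbl, the cohesin loader, with 15.3 and 15.7 at 6770 bp. Of 23 DNA methylation and Polycomb genes 2 did (8.70%, 1.07 to 28.0%, which also includes the share of all genes), Tet2 with 12.7 and 14.6 and Uhrf1, which was found in replicate 2 only (5.14), and each replicate alone had 1 of 23 (4.35%). Among genes often used to illustrate CTCF or enhancer control, Epha4 had 17.4 and 17.99 at 1386 bp, Pim1 had 9.24 and 10.3 at 7940 bp and another peak of 6.86, in replicate 2 only, at 6171 bp, and Chd7 had 6.60 in replicate 1 only. No upstream peak was found for App, Cdkn2a, Dlk1, Hba-a1, Hbb-b1, Hoxd13, Lin28a or Rb1, and Hoxa9 and Trp53 had no eligible upstream sequence.

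**Figure D4:**
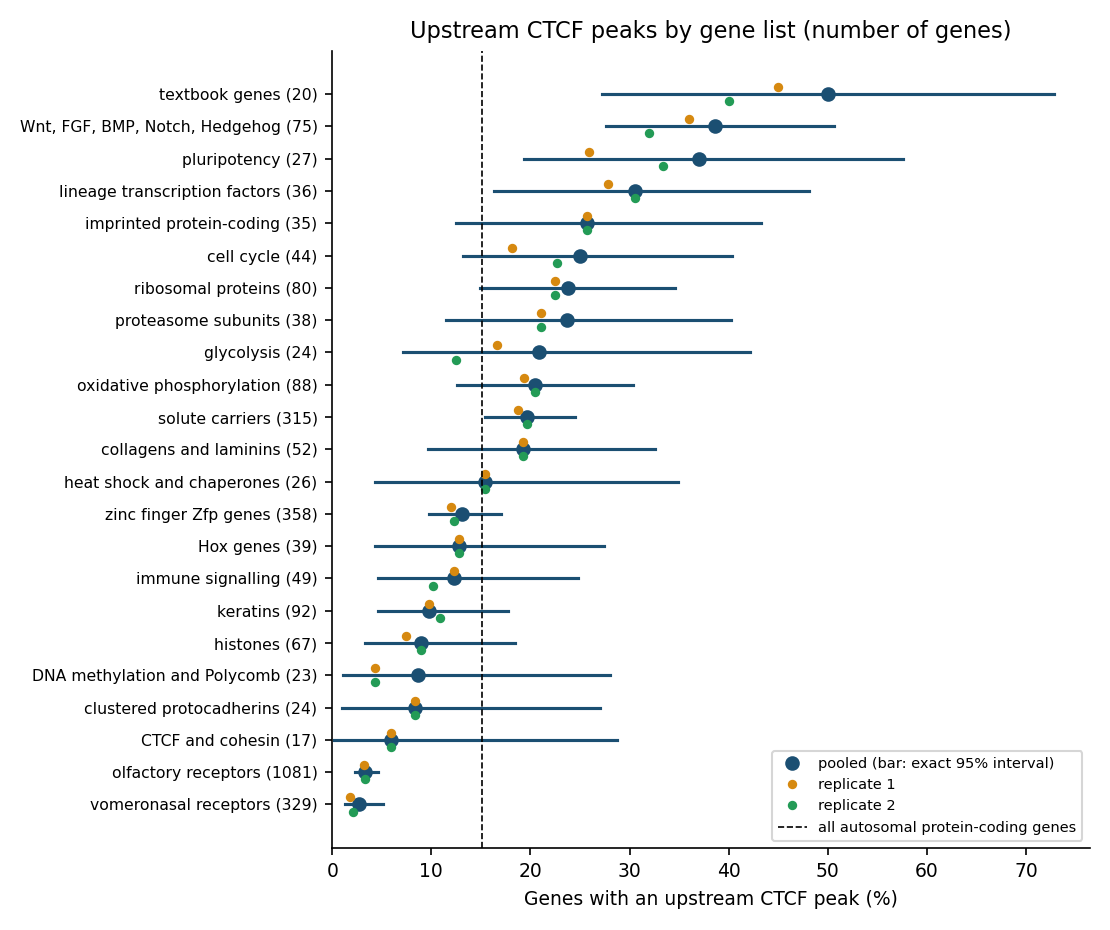
Percentage of genes with an upstream CTCF peak (x axis) for 23 gene lists (y axis, number of autosomal genes in brackets) in the pooled list with its exact 95% interval and in each replicate, with the 15.1% of all autosomal protein-coding genes as a dashed line. Signalling (38.7%) and pluripotency (37.0%) lists lie to the right of the line in the pooled list and in both replicates, and olfactory (3.33%) and vomeronasal (2.74%) receptors to its left.

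The libraries ranked the upstream peaks alike. Of 3745 peaks 3276 (87.5%, interval 86.4 to 88.5%) overlapped a peak of both replicate lists, 171 one of replicate 1 only, 190 one of replicate 2 only and 108 (2.88%) neither. For all other peaks 86.0% overlapped both and 3.42% neither. Upstream peaks that were not in both lists were weak, with a median pooled value of 5.35, against 13.9 for those in both. Relative fold enrichment of matched upstream peaks had a Spearman rho of 0.911 between replicates, and the log2 ratio of replicate 1 to replicate 2 had an SD of 0.29. Over 1.5-fold differences were rare. Of the 3276 matched peaks 71 (2.17%) were over 1.5-fold higher in replicate 1, against 2.19% of all matched autosomal peaks, and 90 (2.75%) in replicate 2, against 2.66%. These shares are at the background. Over 2-fold apart were 4, upstream of Myh4 and Elf3 (higher in replicate 1) and of Arf1 and Sfrp2 (higher in replicate 2), which are named after their values were seen.

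The largest differences in rank were found upstream of Rbm34 (23.2 in replicate 1 and 13.1 in replicate 2), Cmc1 (19.5 and 10.9) and Mad2l1, a spindle checkpoint gene (17.95 and 9.71). In the other direction stood Ncan, a brain proteoglycan gene (10.6 and 19.5), 2310007L24Rik (10.6 and 18.9) and Hic1, a tumour suppressor gene (8.71 and 16.9). All 6 had middling pooled values, between 12.5 and 16.7. The GC content within 150 bp of the midpoint was 32.6 to 36.9% in the peaks higher in replicate 1 and 50.2 to 59.5% in those higher in replicate 2, against a median of 46.5% over all upstream peaks. Whether base composition has a part in the difference between libraries was not tested.

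**Figure D5:**
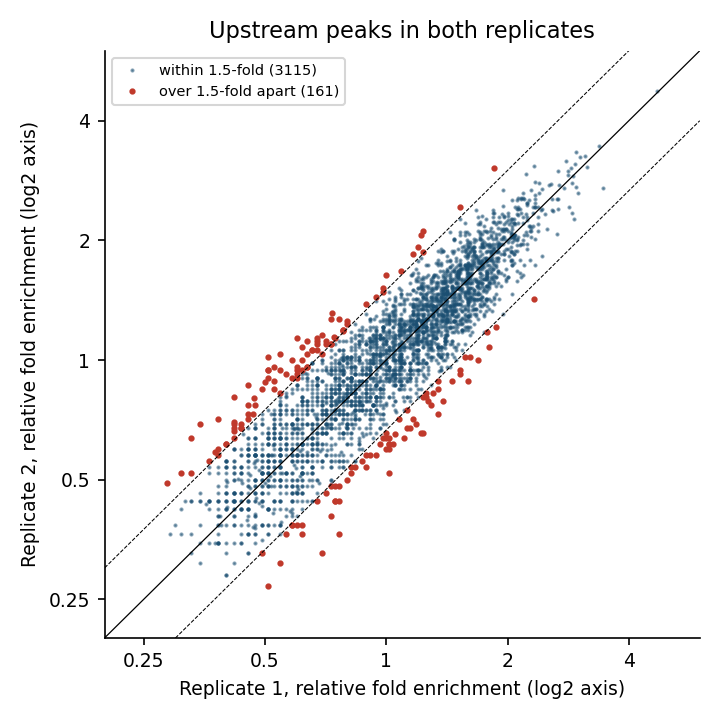
Relative fold enrichment of the 3276 upstream peaks matched in both libraries, replicate 1 (x axis) against replicate 2 (y axis), both on log2 axes, with lines of equality and of 1.5-fold difference. The 161 peaks over 1.5-fold apart (red) sit on both sides of the diagonal, 71 toward replicate 1 and 90 toward replicate 2.

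Peaks at the limits of the window were of mixed strength. Just inside were peaks just over 1000 bp from Cep110 (13.7 and 16.9 in replicates 1 and 2) and Bai2 (6.07 and 6.57), 9997 bp from Adh4 (8.71 and 10.9) and 9999 bp from Gcnt2 (7.14 in replicate 2 only). Just outside were peaks 1000 bp from Ephb6 (7.92 and 4.86) and D930020B18Rik (9.71 in replicate 2 only), 10001 bp from Alg8 (29.8 and 28.3) and 10015 bp from Ephb2 (5.28 and 6.57).

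A separate peak set of the same libraries, the authors' conservative IDR set on mm10, was classed with RefSeq starts on 18 autosomes. It had 3103 upstream peaks of 41091 (7.55%, interval 7.30 to 7.81%), with a median deposited signal of 83.9, against 77.8 for the other peaks of the set. Of the mm9 genes with an upstream peak whose name was matched to RefSeq (2449) 81.5% also had one here, and of the genes found here with a GENCODE name (2430) 82.1% had one on mm9. The peak of Dus3l was again the strongest of all, with a signal of 559.7 at 1206 bp, and Gprc5b ranked 11 of all with 391.9 at 1171 bp. The pooled mm10 signals of Nanog and Pim1 were 48.9 and 71.4, below the upstream median. That of Psmd9, 71.8, was also below it, although its mm9 peak was strong (23.5 and 25.1 in replicates 1 and 2).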

How the data were processed

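The authors deposited a peak list on mm9 for each of the 2 libraries and one for the series, taken here as pooled because it belongs to no single sample. Column 7 was used as deposited: a fold enrichment per peak (a ratio, never below 2.81 in the pooled list), beside a deposited −log10 p (never below 5.00). The conservative IDR set on mm10 carries a deposited signal per peak of unstated scale. The peak caller is not stated in the labels or headers and is not given in the sources used here, and what the labels name as a possible control was not used here. Without read counts no depth or floor could be given.

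Peaks were classed by midpoint on the mm9 sequence (NCBIM37) with GENCODE vM1 (Python 3.11.15, numpy 2.4.6, pandas 2.3.3, scipy 1.17.1; figures with matplotlib 3.10.9). The pooled list gave the members, and a peak was found in a replicate when at least 1 bp overlapped. Replicate values were divided by that replicate's median over matched peaks (14.52 and 14.85) to give relative fold enrichment. The motif came from expectation maximisation on the 5000 strongest peaks outside the upstream set, seeded with their most enriched 8-mer, and thresholds from windows 2000 bp beyond the peak edge that overlap no peak. Motif learning, classes and overlaps were tested on simulated data. Named are the 10 strongest members (1 of them is not reported here), up to 3 genes per list, the 3 largest rank differences each way, the genes with most members, the widest members, peaks at the window's limits and a list of textbook genes. Others are marked in the text, or complete a count of 5 or fewer. Members, gene lists and rules were chosen with earlier results of these data known. Alternatives covered window, starts, gene set, peak threshold, motif settings, overlap, scaling and single replicates. The study of shared letters was added after seeing the data. The labels call the replicates biological and give each a biosample of its own.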

Additional observations from a re-analysis of the deposited data

How the results depend on the processing

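No paired analysis was possible because the 2 libraries belong to 1 group. With so few libraries the spread between replicates was small, and most values moved by more than it. From the replicate lists alone, the upstream share of peaks was 9.79 to 9.85%, density 28.7 to 28.8 per Mb, the ratio of medians 1.06 (1.058 and 1.061), the motif share 37.8 to 38.9%, motif direction 49.96 to 50.07%, the share of genes 14.2 to 14.3%, the share of peaks found 92.04 to 92.55% and the shared-letter motifs 24 to 24.55%. The share over 1.5-fold apart (4.92%) needs both libraries and has no such value. With peaks at or above the median pooled −log10 p, share, density, ratio, direction and genes were 10.5%, 16.6 per Mb, 1.02, 51.3% and 8.75%, and shared letters were 17.7%. A window of 1 to 5 kb gave 5.39%, 33.75 per Mb, direction 49.9% and genes 9.17%, and one of 2 to 10 kb 8.19%, 29.8 per Mb, 50.1% and 12.95%. With 1 start per gene, share, density and genes were 9.84%, 30.7 per Mb and 15.3%. Genes of any type gave 10.6%, 26.4 per Mb, ratio 1.05, direction 52.1% and genes 10.85%. The motif share depended most on its settings: 11.8% at the 0.1% score and 80.75% at the 5% score, 20.8% over the whole peak and 50.9% within 50 bp, with direction at 51.9% (5% score), 50% (whole peak) and 51.8% (50 bp). Shared letters, whose settings were chosen after seeing the data, opened 47.9% of motifs at the 1% score, and the 8-mer in their place followed 11.1%. The mm10 set gave a share of 7.55%.

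Of 161 list shares under alternatives, 155 stayed on the same side of the share of all genes and 6 did not: glycolysis without replicate 1 (12.5%), with stronger peaks (4.17%) and to 5000 bp (8.33%), heat shock (7.69%) and Hox genes (10.3%) to 5000 bp, and Zfp genes against genes of any type (11.45%). The overlap rule (86.7% at 50% coverage) and the scaling of fold enrichment changed little. Depth is unknown, so weak peaks missing from 1 list cannot be told apart from unbound sites.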

Other observations

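The X chromosome lies outside the rule. Classed the same way, it had 57 upstream peaks of 830 in the pooled list (6.87%, interval 5.24 to 8.81%), with 45 of 741 (6.07%) in replicate 1 and 46 of 718 (6.41%) in replicate 2. The median pooled fold enrichment was 8.30 for these upstream peaks and 8.72 for the other peaks of X, against 12.9 for upstream peaks on the autosomes. The medians of upstream and other peaks of X were 10.03 and 9.77 in replicate 1. In replicate 2 they were 9.425 and 9.71, so the order differed between the libraries. In a male line X is present in 1 copy and each autosome in a pair. Whether copy number has a part in the lower values was not tested.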
